A study of Mus musculus with 6 samples.

Results

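The nuclear genes of oxidative phosphorylation were examined in alveolar macrophages, the resident phagocytes of the airspaces. They were chosen by symbol, as every gene of the count table whose name begins with Nduf, Uqcr, Cox4 to Cox8 or Atp5, together with Sdha to Sdhd, Cyc1 and Cycs, and 94 of 25664 genes met that rule. RNA came from macrophages sorted out of bronchoalveolar lavage fluid (BAL) of mice, in 3 libraries with the genotype Vav1cre/+ Pex5fl/fl and 3 with the genotype Pex5fl/fl. The groups are called Vav1-Cre and control. Both carry floxed alleles of Pex5, which encodes the import receptor for most enzymes of the peroxisomal matrix, and only the Vav1-Cre group carries the recombinase. Vav1-Cre acts in blood-forming cells and their progeny, so it is not restricted to macrophages. The age and sex of the mice, the exons between the loxP sites and whether cells of several mice were pooled were not given in the sources used here.

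Oxidative phosphorylation takes place in the inner mitochondrial membrane. Complex I (NADH dehydrogenase) and complex II (succinate dehydrogenase) pass electrons to ubiquinone, complex III passes them on to cytochrome c, and complex IV (cytochrome c oxidase) passes them to oxygen. Complexes I, III and IV pump protons, and complex V (ATP synthase) uses the returning protons to make ATP. The mitochondrial genome encodes a small set of the subunits, while the nuclear genome encodes all the others and the proteins that assemble them. Resting alveolar macrophages live in a lipid-rich space and are known for their reliance on fatty acid oxidation and respiration.

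The 94 genes divide into 44 of complex I, 4 of complex II, 9 of complex III, cytochrome c itself (Cycs), 20 of complex IV and 16 of complex V. Among those of complex I, 8 are assembly factors (Ndufaf1 to Ndufaf8) that are not part of the finished enzyme. Ndufa4, which was long counted with complex I, is grouped with complex IV, of which it is a subunit. 88 of the 94 genes had enough reads to be tested. The other 6, all but Ndufa4l2 named as complex IV subunits, were Cox4i2 and Cox6a2, with 1 to 11 counts in each library, and Cox7b2, Cox8b, Cox8c and Ndufa4l2, which had 0 counts in all 6 libraries. A count of 0 allows a level of up to 0.225 CPM (counts scaled to the same library total), taken as 3 counts in the smallest library.

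Promoters were read from RefSeq (GRCm38.p6), as 250 bases before and 50 bases after a gene's start, for 77 of the 94 genes, and 5 of these have more than 1 start listed. 5 short words were searched on both strands, each a core of a motif known from promoters of respiratory genes. These were GCATGCGC for NRF1, CCGGAAG for the ETS family to which GABP belongs, AAGATGGC for YY1, AAGGTCA for the oestrogen-related receptors (ERR) and GGGCGG for SP1. The NRF1 word lies in a palindrome, so that overlapping hits on opposite strands were counted as 1 promoter. Of the 77 genes, 13 (16.9%) held the NRF1 word, against 6.53% of 8516 tested genes and 3.05% of all 27025 genes in the promoter table. The YY1 word occurred in 14.3% of the 77, against 5.89% of tested genes and 3.19% of all. The ERR word occurred in 10.4%, against 3.76% of tested genes and 5.38% of all, and the ETS word in 23.4%, against 22.3% of tested genes and 9.93% of all. The SP1 word was found in 46.8% of the 77 genes, against 69.5% of tested genes and 38.2% of all. These shares describe the windows, and a match does not show that a factor binds there.

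Promoters of 3 genes are shown as examples of these words, which are in capitals with all other bases in lower case, each written 5′ to 3′ on the gene's strand. Ndufa6 is shown because it had the smallest p of the 88 genes, Cycs because it is the mobile electron carrier, and Sdhd because its window held 3 different words. All 3 genes lie on the minus strand. The windows are chr15:82354242-82354541 for Ndufa6, chr6:50566520-50566819 for Cycs and chr9:50603800-50604099 for Sdhd. In Ndufa6 the NRF1 word starts at -83 and the SP1 word at 43, counted from the start of transcription at 1. In Cycs they start at -60 and 32. In Sdhd, the ETS word starts at -46, the SP1 word at -3 and the ERR word at 37, the ETS and ERR words being on the opposite strand.
Ndufa6: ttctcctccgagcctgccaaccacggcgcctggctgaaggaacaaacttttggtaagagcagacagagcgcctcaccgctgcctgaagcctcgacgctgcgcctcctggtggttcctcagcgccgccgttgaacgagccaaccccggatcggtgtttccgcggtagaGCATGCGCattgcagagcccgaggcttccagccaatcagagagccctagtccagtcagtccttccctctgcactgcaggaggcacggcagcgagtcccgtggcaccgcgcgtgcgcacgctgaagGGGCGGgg
Cycs: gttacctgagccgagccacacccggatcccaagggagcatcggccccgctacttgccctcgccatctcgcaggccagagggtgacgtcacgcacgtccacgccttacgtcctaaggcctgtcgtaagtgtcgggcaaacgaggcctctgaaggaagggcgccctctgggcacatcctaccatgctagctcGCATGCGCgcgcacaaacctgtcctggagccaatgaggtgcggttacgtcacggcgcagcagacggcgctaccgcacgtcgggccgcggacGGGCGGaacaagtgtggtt
Sdhd: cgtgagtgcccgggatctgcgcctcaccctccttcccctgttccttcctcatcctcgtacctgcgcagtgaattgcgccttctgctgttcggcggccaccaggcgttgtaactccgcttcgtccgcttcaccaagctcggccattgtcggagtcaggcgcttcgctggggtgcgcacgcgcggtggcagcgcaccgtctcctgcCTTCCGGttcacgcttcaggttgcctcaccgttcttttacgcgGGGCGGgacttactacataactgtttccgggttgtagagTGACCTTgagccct

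The libraries held 13325609 to 19413838 counts in the Vav1-Cre group and 14226108 to 18987200 in the control group. Pex5 was not lower in the counts, at 32.4 ± 3.45 CPM in Vav1-Cre and 31.6 ± 1.71 CPM in control libraries (SD, n = 3 each), so the genotype labels are not checked by these counts. Markers of alveolar macrophages summed over 10 genes to 40531 to 64870 CPM in Vav1-Cre and 46174 to 62807 CPM in control. Most of that was Chil3, at 48108 ± 19516 CPM in Vav1-Cre and 43069 ± 9852 CPM in control after scaling. Siglecf fell by 1.57 on the log2 scale (edgeR adjusted p = 0.00334). Every Vav1-Cre library was also below every control library for Adgre1, Ear2, Itgax and Mertk, with edgeR adjusted p from 0.0734 to 0.331. Ear2 among them had a log2 fold change of -1.58. The groups overlapped for Marco, Fcgr1, Car4, Pparg and Chil3. Neutrophil markers summed to 133 to 180.4 CPM in Vav1-Cre, against 77.7 to 102 CPM in control libraries. Of those 10 markers 4 were tested and 2 rose (Cxcr2 and S100a8), beside 1.74% of all genes tested. S100a9, Ly6g, Retnlg, Camp and Ngp were at 0 in all libraries. Mmp8, the largest part of that sum in Vav1-Cre, averaged 69.3 ± 34.8 CPM there and 36.9 ± 1.72 CPM in control (edgeR adjusted p = 0.156). Csf3r ran the other way, at 28.1 ± 9.44 CPM in Vav1-Cre and 40.5 ± 7.84 CPM in control (edgeR adjusted p = 0.279). Epithelial markers summed to 66.9 to 73.5 CPM in Vav1-Cre and 40.6 to 54.5 CPM in control, almost all of it Cdh1, which alveolar macrophages also express. Markers of monocytes or interstitial macrophages summed to 5.20 to 9.53 CPM, against 3.58 to 7.25 CPM in control, with C1qc at 0. T cell markers did not exceed 0.112 CPM in Vav1-Cre and 0.139 CPM in control libraries, and eosinophil markers were at 0. The part of other cells in the values below was not tested. Vav1-Cre replicate 2 stood apart, with 30.4% of its counts in the 50 most abundant genes, against 38.3% to 42.1% in the other libraries, and a scaling factor of 1.34, against 0.90 to 1.03. It also held haemoglobin reads, with 26 counts of Hba-a1, 51 of Hbb-bs and 11 of Hbb-bt. Elsewhere these genes had 1 count, of Hbb-bs in Vav1-Cre replicate 3. The source of these reads was not tested.

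The nuclear genes together took a small and similar share of the transcripts in both groups. They held 1.34%, 1.52% and 1.399% of all counts in Vav1-Cre replicates 1 to 3, against 1.25%, 1.196% and 1.35% in control replicates 1 to 3. After scaling by the trimmed mean of M values (TMM) they summed to 13985, 11378 and 15354 CPM in the Vav1-Cre libraries, against 13956, 13006 and 13114 CPM in the control libraries. The ranges overlap on both scales, and Vav1-Cre replicate 2 is the highest library by share of counts and the lowest after scaling. In bulk RNA, fewer cells that express a gene and less of its RNA per cell cannot be told apart.

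Per length, complexes III, IV and V had higher medians than complexes I and II in both groups. Levels were divided by the length of the principal coding transcript, giving RPKM, the scaled CPM per kilobase. The median over tested genes was 61.6 RPKM in Vav1-Cre and 58.2 RPKM in control for complex I. For complex II the medians were 116 RPKM in Vav1-Cre and 115 RPKM in control, and for complex III 212 RPKM in Vav1-Cre and 209.6 RPKM in control. For complex IV they were 213 RPKM in Vav1-Cre and 191 RPKM in control, and for complex V 194 RPKM in Vav1-Cre and 193 RPKM in control. Cox4i1, which encodes the ubiquitous form of subunit IV, had the highest level per length, at 1415 ± 353 RPKM in Vav1-Cre and 1155 ± 21.1 RPKM in control libraries (SD, n = 3 each). Atp5b, the catalytic beta subunit of ATP synthase, reached 730.1 ± 155 RPKM in Vav1-Cre and 838 ± 34.4 RPKM in control libraries. These SDs overlap for both genes. The assembly factors of complex I had the lowest median of any group with more than 2 tested genes, 9.15 RPKM in Vav1-Cre and 8.52 RPKM in control, with Ndufaf4 lowest among them at 2.88 RPKM in Vav1-Cre and 1.90 RPKM in control.

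**Figure D1:**
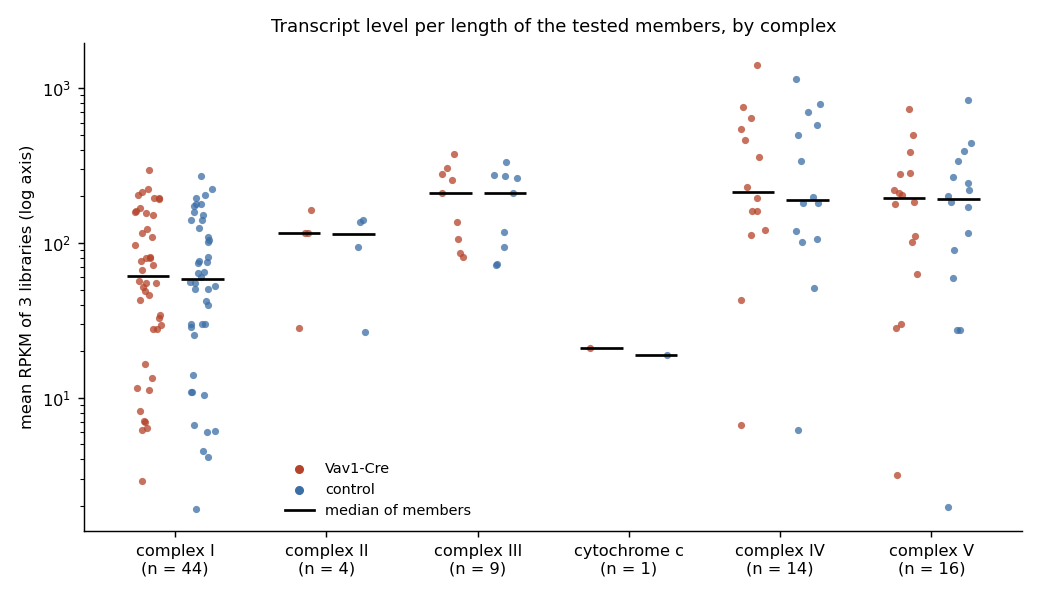
Level per length of each tested gene by complex, as mean RPKM of 3 libraries on a log axis, with Vav1-Cre points left of control points and black bars at the median of the genes. The medians of the groups lie close together in every complex, from 61.6 (Vav1-Cre) and 58.2 (control) RPKM in complex I to 213 (Vav1-Cre) and 191 (control) RPKM in complex IV.

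The comparison asks whether transcripts of the respiratory chain differ in macrophages of Vav1cre/+ Pex5fl/fl mice. In edgeR's quasi-likelihood test, with p-values adjusted over 11011 genes by the Benjamini-Hochberg method, 0 of the 88 tested genes passed 0.05. Of all tested genes 358 (3.25%) passed, 1.74% higher and 1.51% lower. DESeq2 called 1 of the 88 (Ndufa6), beside 6.86% of all genes. At an unadjusted p under 0.05, 17 of the 88 genes were higher in Vav1-Cre (19.3%), beside 9.7% of all tested genes, and 1 was lower (1.14%), beside 9.17%. The fitted log2 fold change, Vav1-Cre over control, was above 0 for 66 of the 88 (75%), beside 49.9% of all genes, and the median was 0.11, beside -0.00 over all genes. With no scaling beyond library size the median of all genes itself was 0.17, that of the 88 was 0.25, 80 of the 88 lay above 0, and 1 was called (Ndufa6), beside 3.82% of all genes. With no filter on low counts 1 was called as well (Ndufa6), beside 3.19%. The groups did not overlap, with Vav1-Cre higher, for 19 of the 88 (21.6%), where 13% of all tested genes were of this kind. With Vav1-Cre lower there were 3 (3.41%), beside 13.1%. The differences were small, from -0.28 (Atp5a1) to 0.69 (Atp5s). The 95% interval stayed within 1.5-fold either way for 70 of the 88 genes and within 2-fold for 87, with Atp5s the exception.

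**Figure D2:**
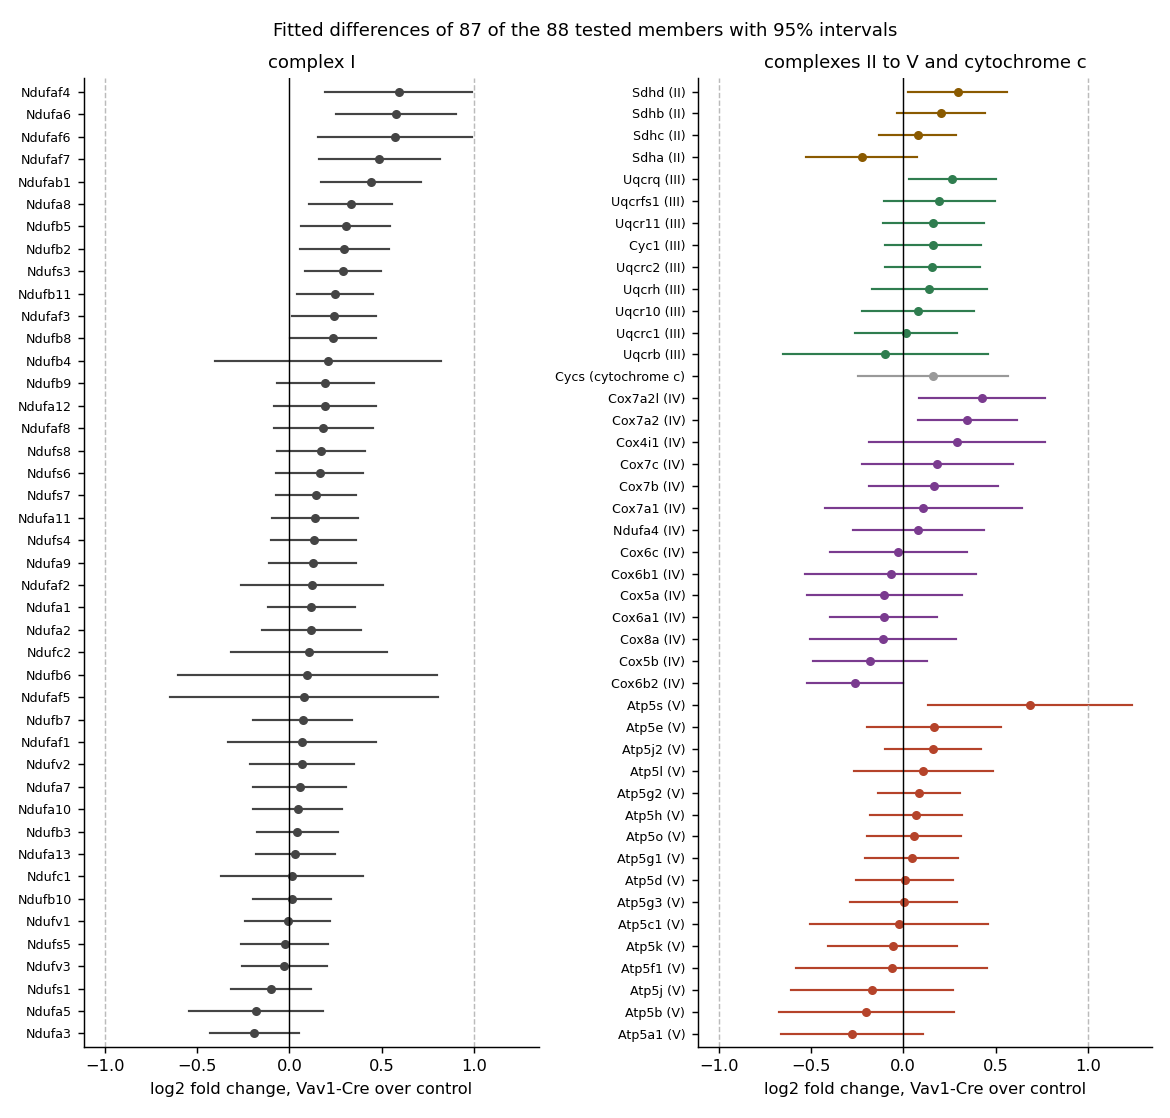
Fitted log2 fold change of 87 of the 88 tested genes, Vav1-Cre over control, with 95% intervals, complex I on the left and the other complexes on the right, dashed lines at 2-fold. Most points of complexes I and III lie above 0, those of complexes IV and V lie on both sides, and only the interval of Atp5s passes 2-fold.

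In complex I, 37 of the 44 genes had a log2 fold change above 0, beside 49.9% of all tested genes, and the median was 0.12. At an unadjusted p under 0.05, 12 of the 44 were higher, beside 9.7% of all tested genes, and 0 were lower, beside 9.17%. Without Vav1-Cre replicate 2 the median was 0.19, with 40 of the 44 above 0, and without Vav1-Cre replicate 3 it was 0.10, with 30 of 44. The 8 assembly factors were all above 0, with a median of 0.21, beside a median of 0.07 for the 7 core subunits, which carry out the reaction. The 9 accessory subunits of the matrix arm had a median of 0.13 and the 20 of the membrane arm 0.11. The summed level of complex I was 3262, 3028 and 3551 CPM in Vav1-Cre replicates 1 to 3, against 3071, 2958 and 3069.9 CPM in control replicates 1 to 3, so the groups overlapped.

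Ndufa6, an accessory subunit of the matrix arm that binds the mitochondrial acyl carrier protein, had the smallest p of all 88 genes. It spans 82350140 to 82354322 on chromosome 15 (GRCm38). It measured 103 CPM, 70.8 CPM and 93.5 CPM in Vav1-Cre replicates 1 to 3, against 62.5 CPM, 57.7 CPM and 58.7 CPM in control replicates 1 to 3. All Vav1-Cre libraries lay above all control libraries, and replicate 2 was the closest to them. The fitted difference, as log2 fold change, came to 0.58 ± 0.14 (SE, n = 3 per group), with a 95% interval from 0.26 to 0.90 and an edgeR adjusted p of 0.0695. The call turned on the settings. The adjusted p was 0.0372 with library size only, 0.0165 with DESeq2, 0.0399 with no filter on low counts and 0.0102 without Vav1-Cre replicate 2, and it reached 0.203 without Vav1-Cre replicate 1.

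Ndufab1 is that acyl carrier protein, which also serves mitochondrial fatty acid synthesis, on chromosome 7 from 122085403 to 122101886. It measured 26.0, 27.6 and 32.4 CPM in the Vav1-Cre libraries, against 22.6, 20.2 and 20.5 CPM in the control libraries. The groups did not overlap here either, and the log2 fold change was 0.44 ± 0.12 (SE), adjusted p = 0.0899. Ndufa8, an accessory subunit on the intermembrane face of the membrane arm, had 77.4, 84.1 and 88.7 CPM in Vav1-Cre, against 65.6, 64.1 and 69.2 CPM in control libraries. Its log2 fold change was 0.33 ± 0.10 (SE), adjusted p = 0.112. Again every Vav1-Cre library was above every control library.

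Among the assembly factors, Ndufaf7 is a methyltransferase that, in human cells, modifies a core subunit. It had 11.1, 11.5 and 10.9 CPM in Vav1-Cre libraries, against 7.35, 8.53 and 7.97 CPM in control libraries. Ndufaf4, which acts with Ndufaf3 early in assembly, had 11.8, 8.61 and 10.9 CPM in Vav1-Cre libraries, against 7.35, 6.41 and 6.95 CPM in control libraries. Ndufaf6, needed in human cells for the module that holds the mitochondrial subunit ND1, had 7.12, 6.89 and 5.93 CPM in Vav1-Cre libraries, against 4.22, 4.24 and 4.93 CPM in control libraries. None of these 3 genes had overlapping groups. The log2 fold change was 0.49 ± 0.14 for Ndufaf7 (adjusted p = 0.111), 0.59 ± 0.18 for Ndufaf4 (adjusted p = 0.113) and 0.57 ± 0.18 for Ndufaf6 (adjusted p = 0.138). Ndufaf3 averaged 24.6 ± 1.25 CPM in Vav1-Cre and 20.8 ± 0.225 CPM in control (SD, n = 3 each), with a log2 fold change of 0.24 and adjusted p = 0.24. Ndufaf5, in human cells a hydroxylase of the core subunit Ndufs7, was the most uneven, at 16.7, 6.64 and 17.3 CPM in Vav1-Cre replicates 1 to 3, against 12.3, 14.1 and 11.6 CPM in control. The low value was that of Vav1-Cre replicate 2. Ndufaf2 shares 80.5% of its 100-base words with an overlapping antisense gene, so its level of 7.65 ± 0.885 CPM in Vav1-Cre and 7.03 ± 0.506 CPM in control is uncertain.

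None of the nuclear core subunits passed the test. Ndufs3, a subunit of the arm that leads electrons to quinone, had 53.0, 49.1 and 50.9 CPM in Vav1-Cre, against 41.5, 40.3 and 43.3 CPM in control libraries. The groups did not overlap, with a log2 fold change of 0.29 ± 0.09 (SE) and adjusted p = 0.129, and 19.9% of its words also occur in another gene, which makes the level uncertain. Ndufs8, which carries iron-sulfur clusters, averaged 117 ± 7.57 CPM in Vav1-Cre and 104 ± 6.85 CPM in control (log2 fold change 0.17, adjusted p = 0.42). Ndufs1, which also carries iron-sulfur clusters, was the only complex I gene with all Vav1-Cre libraries below all control libraries, by a narrow margin. It averaged 73.8 ± 2.89 CPM in Vav1-Cre and 79.1 ± 4.34 CPM in control, with an adjusted p of 0.622, and it is named after its values were seen. Of the 7 core subunits, 2 had groups apart with Vav1-Cre higher, beside 13% of all tested genes, and 1 with Vav1-Cre lower, beside 13.1%.

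Of the 20 accessory subunits of the membrane arm, 6 had groups that did not overlap, Ndufab1 and Ndufa8 among them. All 6 were higher in Vav1-Cre, where 13% of all tested genes were of this kind. Ndufb5 averaged 86.2 ± 6.05 CPM in Vav1-Cre and 69.8 ± 5.74 CPM in control (SD, n = 3 each), Ndufb2 58.3 ± 6.39 CPM in Vav1-Cre and 47.4 ± 1.22 CPM in control, and Ndufb11 65.4 ± 1.08 CPM in Vav1-Cre and 55.0 ± 2.35 CPM in control. Ndufb8 averaged 139.6 ± 7.68 CPM in Vav1-Cre and 119 ± 6.20 CPM in control. The log2 fold changes of these 4 genes lay between 0.24 and 0.30, and the adjusted p between 0.17 and 0.261. Ndufb5 shares 14.2% of its words with its antisense neighbour Mrpl47. In Ndufb9 (157 ± 16.7 CPM in Vav1-Cre and 137 ± 5.97 CPM in control, with 17.0% shared words) the groups overlapped. They also overlapped in Ndufa12, an accessory subunit of the matrix arm (36.3 ± 3.49 CPM in Vav1-Cre and 31.8 ± 3.54 CPM in control). Ndufa3 ran the other way, at 100.2 ± 7.71 CPM in Vav1-Cre and 114 ± 6.88 CPM in control, with a log2 fold change of -0.19 and adjusted p = 0.375.

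In complex II, which also serves the citric acid cycle, the catalytic subunit and the others lay on opposite sides of 0. Sdha, the flavoprotein that oxidises succinate, had 336, 309 and 364 CPM in Vav1-Cre, against 424, 359 and 396 CPM in control libraries. Sdhb, the iron-sulfur subunit, had 179, 184 and 196 CPM in Vav1-Cre, against 159.7, 154 and 171 CPM in control libraries. Sdhd, a membrane anchor whose promoter is shown above, had 126, 151 and 152 CPM in Vav1-Cre, against 124, 118 and 107 CPM in control libraries. The groups were apart for Sdhb and Sdhd, by a narrow margin for Sdhd, and overlapped for Sdha. The log2 fold change was -0.23 ± 0.13 for Sdha (SE, adjusted p = 0.396), 0.20 ± 0.11 for Sdhb (SE, adjusted p = 0.334) and 0.29 ± 0.12 for Sdhd (SE, adjusted p = 0.228). Their sum with Sdhc was 754 ± 39.2 CPM in Vav1-Cre and 756 ± 39.4 CPM in control.

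In complex III, 8 of the 9 genes had a log2 fold change above 0, beside 49.9% of all tested genes, and the median was 0.16. Uqcrq alone had groups that did not overlap, with Vav1-Cre higher, where 13% of all tested genes were of this kind. The median of complex III was 0.25, with 9 of 9 above 0, without Vav1-Cre replicate 2, and 0.06, with 6 of 9, without Vav1-Cre replicate 3. Uqcrq, a small subunit beside cytochrome b, had 132, 122 and 139 CPM in Vav1-Cre, against 105, 106 and 116 CPM in control libraries, with a log2 fold change of 0.27 ± 0.10 (SE) and adjusted p = 0.215. Uqcrc1, a core protein and the most abundant complex III gene by CPM, had 325, 345 and 380.1 CPM in Vav1-Cre, against 345, 343 and 351 CPM in control libraries. Its log2 fold change was 0.01, with a 95% interval from -0.26 to 0.29. Cycs, the soluble carrier to complex IV, had 68.3, 47.8 and 80.7 CPM in Vav1-Cre, against 63.3, 58.6 and 53.9 CPM in control libraries. Both the highest and the lowest Cycs values were in the Vav1-Cre group. The log2 fold change of Cycs was 0.16 with a 95% interval from -0.25 to 0.57, and 24.7% of its words occur in other genes.

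**Figure D3:**
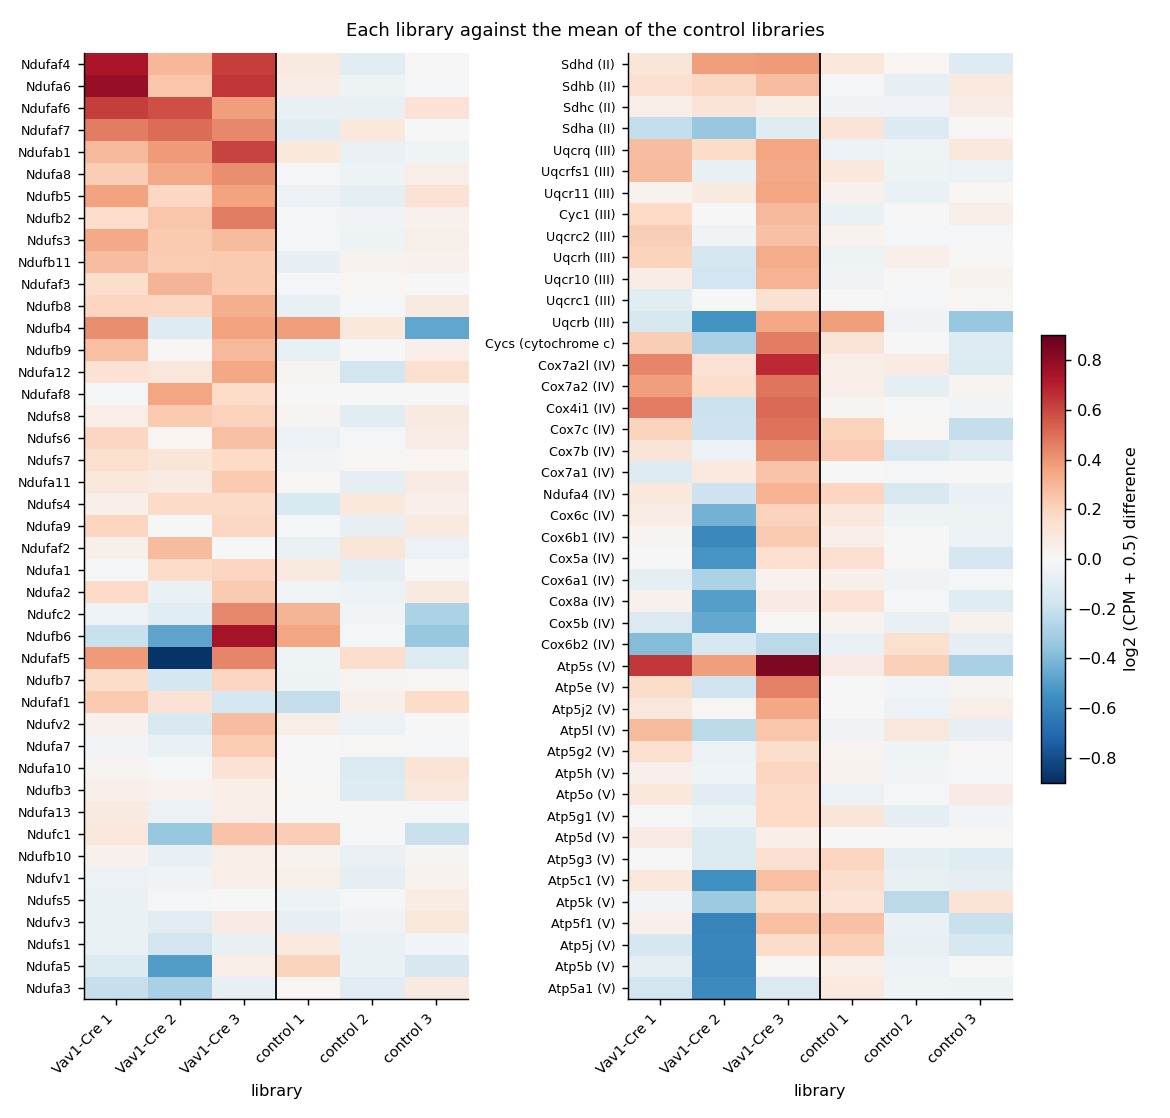
Level of 87 of the 88 tested genes in each library, as the log2 (CPM + 0.5) difference from the mean of the control libraries (red higher, blue lower), genes ordered as in the plot of fitted changes. Vav1-Cre replicates 1 and 3 are red for many genes, while Vav1-Cre replicate 2 is blue for many genes of complexes IV and V, including Atp5b and Cox6b1.

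Complex IV was evenly split, with 7 of 14 tested genes above 0 and a median of 0.03. This rested on single libraries, since the median was 0.15 without Vav1-Cre replicate 2 (11 of 14 above 0), -0.10 without Vav1-Cre replicate 3 (5 of 14) and -0.02 without control replicate 2 (7 of 14), and 0.07 to 0.11 when each of the others was left out. It was 0.16 (12 of 14) with library size only, where that of all genes was 0.17, and -0.03 (6 of 13) with a minimum mean of 5 CPM. Cox7a2, the form of subunit VIIa found in most tissues, had 156, 134 and 168 CPM in Vav1-Cre, against 125, 113 and 122 CPM in control libraries. Cox7a2l, a related protein that joins complexes III and IV into supercomplexes, had 173, 140.1 and 204 CPM in Vav1-Cre, against 133, 135 and 117 CPM in control libraries. The groups did not overlap for these genes. The log2 fold change was 0.35 ± 0.12 for Cox7a2 (SE, adjusted p = 0.157) and 0.43 ± 0.15 for Cox7a2l (SE, adjusted p = 0.168). Cox7a2l lies on chromosome 17 from 83501918 to 83517330 and Cox7a2 on chromosome 9 from 79755361 to 79759878.

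Cox4i1, on chromosome 8 from 120668222 to 120674207, had 1217, 771 and 1258 CPM in Vav1-Cre replicates 1 to 3, against 898, 885 and 866 CPM in control replicates 1 to 3. Vav1-Cre replicate 2 was below all control libraries and the other Vav1-Cre libraries were above them. The log2 fold change was 0.29 ± 0.21 (SE), adjusted p = 0.496, with a 95% interval from -0.18 to 0.77. Without Vav1-Cre replicate 2 the same gene had a log2 fold change of 0.50 and an adjusted p of 0.0388, while over all alternatives its adjusted p ran up to 0.763.

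The ubiquitous isoforms of complex IV made up nearly all of its transcript. Cox4i2, an isoform known from lung that responds to low oxygen, had 2 to 4 counts in Vav1-Cre and 3 to 4 counts in control libraries. Cox6a1 averaged 309 ± 33.4 CPM in Vav1-Cre and 333 ± 9.42 CPM in control (SD, n = 3 each), while Cox6a2, the heart and muscle isoform, had 6 to 11 counts in Vav1-Cre and 1 to 7 counts in control libraries. Cox8a averaged 356 ± 73.2 CPM in Vav1-Cre and 384 ± 31.4 CPM in control, and its muscle and testis counterparts Cox8b and Cox8c had no count. Cox7a1, the muscle form of VIIa, averaged 2.60 ± 0.403 CPM in Vav1-Cre and 2.42 ± 0.0134 CPM in control. Ndufa4 averaged 219 ± 37.4 CPM in Vav1-Cre and 207 ± 25.1 CPM in control, and its relative Ndufa4l2, which is induced by low oxygen, had no count. Cox6b2, the testis isoform, was detected throughout, at 22.8, 27.1 and 25.3 CPM in Vav1-Cre, against 28.8, 33.3 and 28.2 CPM in control libraries, beside 464 ± 127 CPM in Vav1-Cre and 486 ± 16.5 CPM in control for Cox6b1. Every Vav1-Cre library was below every control library for Cox6b2, with a log2 fold change of -0.26 ± 0.12 (SE) and adjusted p = 0.264. It was the 1 gene of the 88 that was lower at an unadjusted p under 0.05.

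Complex V had a median log2 fold change of 0.03, with 10 of 16 genes above 0. Here too single libraries set the value, which was 0.14 without Vav1-Cre replicate 2 (14 of 16 above 0), -0.02 without Vav1-Cre replicate 3 (6 of 16), and 0.0029 to 0.081 when each of the others was left out. It was 0.18 (13 of 16) with library size only. Its catalytic head was led by Atp5b, on chromosome 10 from 128083273 to 128090391, which had 1508, 1063 and 1626 CPM in Vav1-Cre, against 1676, 1545 and 1597 CPM in control libraries. Atp5a1, the alpha subunit, had 739.6, 561 and 762 CPM in Vav1-Cre, against 885, 809.9 and 807 CPM in control libraries. The groups overlapped for Atp5b and were apart for Atp5a1, the lowest library being Vav1-Cre replicate 2 for both. The log2 fold change was -0.20 ± 0.21 for Atp5b (SE, adjusted p = 0.654) and -0.28 ± 0.17 for Atp5a1 (SE, adjusted p = 0.413).

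The c subunit of the rotor ring comes from 3 genes that encode the same mature protein with different import sequences. Atp5g1 averaged 133 ± 11.3 CPM in Vav1-Cre and 129 ± 9.004 CPM in control (SD, n = 3 each), Atp5g2 45.8 ± 3.65 CPM in Vav1-Cre and 43.1 ± 1.07 CPM in control, and Atp5g3 134 ± 12.8 CPM in Vav1-Cre and 133 ± 16.1 CPM in control. All 3 log2 fold changes lay between 0.00 and 0.09, and their 95% intervals between -0.29 and 0.31. Atp5s, named as coupling factor B and listed in RefSeq as Dmac2l, was the gene with the highest log2 fold change of the 88. It had 5.08, 4.16 and 5.93 CPM in Vav1-Cre, against 3.29, 3.66 and 2.43 CPM in control libraries. The groups did not overlap, the log2 fold change was 0.69 ± 0.24 (SE), the 95% interval ran from 0.13 to 1.24, and the adjusted p was 0.174. At this depth its level rests on few reads.

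The share that each complex took of the reads of the 94 genes does not depend on the scaling of the libraries. Complex V took 32.8%, 30.4% and 32.7% in Vav1-Cre replicates 1 to 3, against 35.8%, 34.8% and 34.8% in control replicates 1 to 3. These groups did not overlap, and the highest Vav1-Cre share was below the lowest control share. The share leans on the most abundant genes of the complex, Atp5b and Atp5a1. Atp5b averaged 1399 CPM in Vav1-Cre and 1606 CPM in control, and Atp5a1 688 CPM in Vav1-Cre and 834 CPM in control. The whole complex summed to 4357 CPM in Vav1-Cre and 4696 CPM in control. Of its 16 genes, 10 had a log2 fold change above 0, so the lower share is not a trait of most of them. Complex I took 23.3%, 26.6% and 23.1% in Vav1-Cre, against 22.01%, 22.7% and 23.4% in control libraries. Complex IV took 27.1%, 23.9% and 26.9% in Vav1-Cre, against 25.4%, 25.5% and 24.6% in control libraries, and both of these overlapped. Complex III took 11.10%, 12.24% and 11.53% in Vav1-Cre, against 10.73%, 11.06% and 10.97% in control libraries, so every Vav1-Cre share was above every control share. The groups overlapped for complex II and cytochrome c. In each library the shares add up to the whole, so they are not separate results. No p is given for these sums, because the genes were chosen with earlier results of these libraries known, and 3 libraries against 3 cannot give a permutation p below 0.1.

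**Figure D4:**
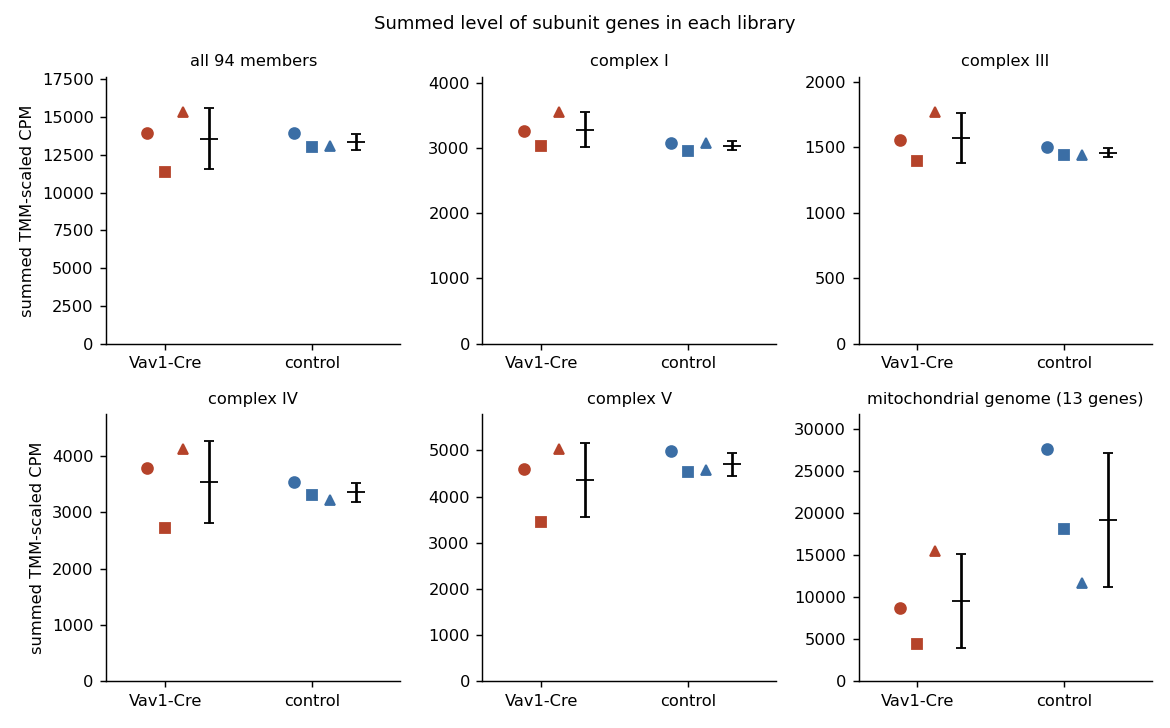
Summed TMM-scaled CPM in each library for all 94 genes, for complexes I, III, IV and V and for the 13 genes of the mitochondrial genome, with Vav1-Cre left of control, circles, squares and triangles for replicates 1, 2 and 3, and mean ± SD beside them (n = 3). Vav1-Cre replicate 2 has the lowest value of the 6 libraries in each panel except that of complex I.

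Vav1-Cre replicate 2 moved many of these values. Against the mean of the control libraries, the median gene of the 88 stood at 0.10, -0.05 and 0.24 on the log2 scale in Vav1-Cre replicates 1 to 3, and at 0.02, -0.03 and 0.00 in control replicates 1 to 3. Above that mean were 63, 34 and 81 of the 88 genes in Vav1-Cre replicates 1 to 3. The spread among the Vav1-Cre libraries was thus wider than the difference between the groups. Set against the other Vav1-Cre libraries, replicate 2 was lower for all 22 of the most abundant genes, with a median log2 ratio of -0.41, and for 12 of the 22 least abundant, with a median of -0.05. Across the 88 genes this ratio had a Pearson's r of -0.31 and a Spearman's rho of -0.40 with mean abundance, and across all 11011 tested genes the r was -0.29. These describe genes of the same libraries, which are not independent. Without replicate 2, the test called 5 of the 88 genes, all higher, where it called 4.75% of all genes tested. They were Ndufa6 (log2 fold change 0.73, adjusted p = 0.0102), Cox4i1 (0.50, 0.0388), Cox7a2l (0.57, 0.0399), Ndufaf4 (0.73, 0.0487) and Cox7a2 (0.45, 0.0488). The adjusted p reached 0.366 for Cox7a2l, 0.297 for Ndufaf4 and 0.374 for Cox7a2 over the other alternatives. The median of the 88 was then 0.19, with 78 above 0. Without Vav1-Cre replicate 3 the median was 0.02, with 50 of the 88 above 0, and 0 were called, beside 1.97% of all genes tested.

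**Figure D5:**
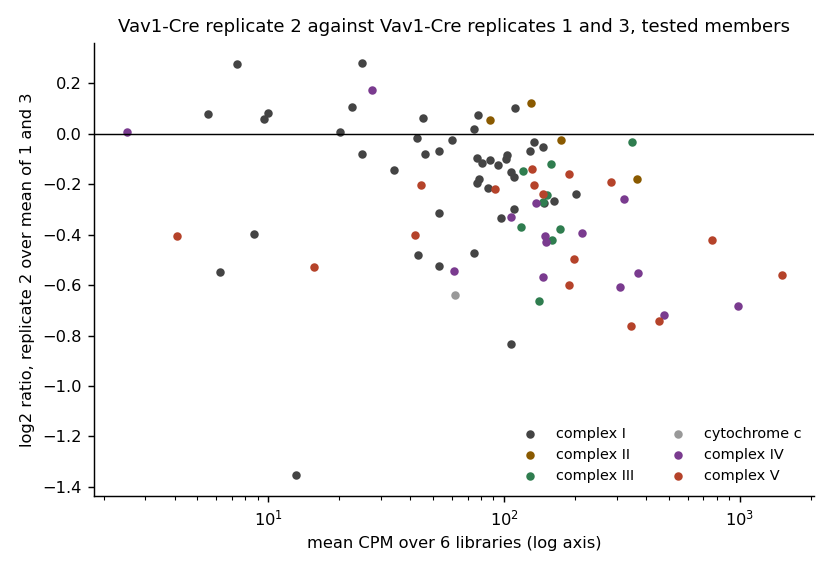
Log2 ratio of each tested gene in Vav1-Cre replicate 2 over the mean of Vav1-Cre replicates 1 and 3, against the mean CPM over 6 libraries (log axis), coloured by complex. The 22 most abundant genes are all below 0, and the lowest point is Ndufaf5 of complex I, at -1.35.

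The subunits encoded by the mitochondrial genome itself had fitted changes below 0. Of 13 such genes 9 were tested, all 9 had a log2 fold change below 0, with a median of -1.17, and 2 fell, mt-Nd6 and mt-Nd4, beside 1.51% of all genes tested. DESeq2 called these 2, mt-Nd3 and mt-Nd5 as lower, beside 3.29% of all genes. mt-Nd6, a complex I subunit encoded on the opposite strand to the others, had 46.1, 39.2 and 56.2 CPM in Vav1-Cre, against 143, 112 and 74.1 CPM in control libraries. Its log2 fold change was -1.22 ± 0.23 (SE), adjusted p = 0.0302. mt-Nd4, a proton-pumping subunit of complex I, had 343, 242 and 429 CPM in Vav1-Cre, against 943, 785 and 560.2 CPM in control libraries. Its log2 fold change was -1.17 ± 0.26 (SE), adjusted p = 0.0463. The groups did not overlap for these genes, but neither call held in every alternative. For mt-Nd6 the adjusted p was 0.114 without Vav1-Cre replicate 1, 0.0537 without Vav1-Cre replicate 2, and 0.104 and 0.0903 with control replicates 1 and 2 left out in turn, in a range over all alternatives from 5.8e-05 to 0.114. For mt-Nd4 it was 0.155 when Vav1-Cre replicate 1 was left out and 0.17, 0.133 and 0.0547 when control replicates 1, 2 and 3 were left out in turn, in a range over all alternatives from 7.01e-06 to 0.17.

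The reads of the mitochondrial genome divided by those of the 94 nuclear genes gave 0.626, 0.389 and 1.01 in Vav1-Cre replicates 1 to 3, against 1.98, 1.398 and 0.893 in control replicates 1 to 3. Vav1-Cre replicate 3 lay above control replicate 3, so the groups overlapped. Some of these genes are poorly measured, since 60.8% of the words of mt-Nd4 and 97.6% to 99.9% of those of mt-Co2, mt-Co3, mt-Atp6, mt-Nd4l and mt-Nd3 also occur in nuclear copies, while mt-Nd6 shares none. The total of mitochondrial reads also varied widely among libraries of the same group, from 4428 to 15532 CPM in Vav1-Cre and from 11707 to 27643 CPM in control.

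Assembly factors outside the symbol rule also lay mostly above 0. Of 50 tested, 41 had a log2 fold change above 0, beside 49.9% of all tested genes, and the median was 0.18. By adjusted p 2 rose, beside 1.74% of all genes tested, a count too small to set the list apart. At an unadjusted p under 0.05, 12 of the 50 were higher, beside 9.7% of all tested genes, and 0 were lower, beside 9.17%. The groups did not overlap for 14 with Vav1-Cre higher, beside 13%, and for 3 with Vav1-Cre lower, beside 13.1%. Cox17, the copper chaperone of complex IV, had 44.0, 45.5 and 43.6 CPM in Vav1-Cre, against 30.4, 32.8 and 29.0 CPM in control libraries. Uqcc2, an assembly factor for cytochrome b of complex III, had 23.9, 23.0 and 22.8 CPM in Vav1-Cre, against 16.7, 16.7 and 14.7 CPM in control libraries. The groups were well apart for both. The log2 fold changes were 0.53 ± 0.09 for Cox17, adjusted p = 0.0238, and 0.54 ± 0.11 for Uqcc2, adjusted p = 0.0369 (SE, n = 3 per group). Without Vav1-Cre replicate 1, Vav1-Cre replicate 3 or any 1 control library the adjusted p was between 0.0544 and 0.111 for Cox17 and between 0.0795 and 0.124 for Uqcc2. With library size only it was 0.0911 for Cox17 and 0.158 for Uqcc2. Over all alternatives it ran from 0.00156 to 0.111 for Cox17 and from 0.00727 to 0.158 for Uqcc2.

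In coenzyme Q synthesis, 13 genes were tested, 11 had a log2 fold change above 0, and 1 rose, beside 1.74% of all genes tested. At an unadjusted p under 0.05, 4 of the 13 were higher, beside 9.7% of all tested genes, and 1 was lower, beside 9.17%. Coq10a, a coenzyme Q-binding protein, had 10.95, 12.98 and 11.02 CPM in Vav1-Cre, against 7.67, 6.30 and 6.01 CPM in control libraries, a log2 fold change of 0.81 ± 0.17 (SE) with adjusted p = 0.0381. That call was lost whichever single library was left out, with adjusted p values from 0.0556 to 0.133, and over all alternatives the range was 0.00161 to 0.149. Coq8a, an atypical kinase of the pathway, averaged 12.2 ± 1.24 CPM in Vav1-Cre and 17.8 ± 2.86 CPM in control (log2 fold change -0.54, adjusted p = 0.106). Of the 13 tested regulators of mitochondrial biogenesis 0 were called by edgeR or by DESeq2. At an unadjusted p under 0.05, 1 was higher, beside 9.7% of all tested genes. That gene, Myc, a growth-promoting transcription factor, averaged 28.3 ± 2.83 CPM in Vav1-Cre and 21.1 ± 2.70 CPM in control, adjusted p = 0.126. Nrf1, which encodes the factor whose word was searched above, averaged 23.2 ± 2.55 CPM in Vav1-Cre and 27.0 ± 3.57 CPM in control, adjusted p = 0.407, and its partner co-activator Ppargc1a had no count.

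Of 17 citric acid cycle genes 0 were called by edgeR or by DESeq2, and the median log2 fold change was -0.03. At an unadjusted p under 0.05, 2 of the 17 were higher, beside 9.7% of all tested genes. Those were Fh1, the fumarase, at 58.6 ± 4.81 CPM in Vav1-Cre and 49.5 ± 2.17 CPM in control (adjusted p = 0.235), and Idh3b, a subunit of isocitrate dehydrogenase, at 164 ± 18.2 CPM in Vav1-Cre and 134 ± 8.38 CPM in control (adjusted p = 0.241). Among 13 tested genes of other quinone donors and of uncoupling proteins 0 were called by edgeR. At an unadjusted p under 0.05, 4 of the 13 were lower, beside 9.17% of all tested genes. DESeq2 called 1, Ucp2, as lower, beside 3.29% of all genes. Ucp2, a carrier of the inner membrane, was abundant, with 4618, 3154 and 5038 CPM in Vav1-Cre, against 8225, 6730.3 and 7109 CPM in control libraries. Every Vav1-Cre library was below every control library, with a log2 fold change of -0.78 ± 0.29 (SE) and adjusted p = 0.185. Ucp3, its relative, averaged 50.9 ± 3.54 CPM in Vav1-Cre and 63.1 ± 4.62 CPM in control (log2 fold change -0.31, adjusted p = 0.15).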

How the data were processed

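RNA from 50000 sorted macrophages per sample was made into libraries with a stranded SMART-Seq kit and sequenced as single-end reads of 100 bp, per the labels' protocols. The authors deposited whole-number counts per gene symbol. STAR, featureCounts, R 4.3.2, DESeq2 1.40.1 and the builds GRCm38.p5 and mm10 are named, per the submitters' processing notes. The annotation and strand setting were not given in the sources used here, and reads of overlapping genes cannot be told apart. No molecular identifiers are named, so limits from counts cover counting error only.

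Groups follow the genotype label and replicate numbers the titles. The labels do not name the mouse behind each sample. The p-values therefore reflect the spread between these libraries alone, and some of it may be technical. Genes were filtered with edgeR's filterByExpr (minimum count 10, minimum total 15), scaled with TMM factors and compared by edgeR's two-sided quasi-likelihood F test (edgeR 4.0.16, R 4.3.3). P-values were adjusted over 11011 genes by the Benjamini-Hochberg method, and every adjusted p comes from this test unless another is named. CPM values use the scaled library sizes, except sums of cell type markers and the level of 3 counts, which use unscaled totals. RPKM divides scaled CPM by the length of the principal coding transcript of GENCODE mouse release M21 (GRCm38). That release also gave coordinates and the percentage of 100-base words that a gene has in common with any other gene. 30 of the 94 genes share some words and 13 share 10% or more. Alternatives were another scaling, DESeq2 1.42.0, other filters, a replicate block and leaving out each library.

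The genes, lists and motifs were chosen with earlier results of these data known. Named were genes called, then the 25 with the smallest p, the most abundant of each complex, isoform sets, and of each other list those called and the 2 with the smallest p. Ndufs1, Ndufaf2, Ndufaf5, mitochondrial genes given by shared words and cell markers are named in addition. Some genes that these rules pick are not reported here, although counts and sums include them.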

Additional observations from a re-analysis of the deposited data

How the results depend on the processing

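Of the 88 genes, 0 were called with DESeq2's size factors in edgeR and with a minimum mean of 5 CPM, and 1 each with library size only, with DESeq2 and with no filter on low counts, which was Ndufa6 each time. Leaving out single libraries gave 0 to 5, the 5 being without Vav1-Cre replicate 2. The median log2 fold change of 0.11 was 0.25 with library size only, where that of all genes was 0.17, and 0.02 to 0.19 when single libraries were left out. Over all genes the count of calls was 358 (192 higher, 166 lower), against 421 with library size only (289 higher, 132 lower), 755 with DESeq2 and 76 to 523 when single libraries were left out. The deviations of same-numbered libraries from their group means had correlations of -0.23, -0.07 and -0.46, and those of differently numbered libraries ran from -0.22 to 0.44. Deviations from a mean of 3 libraries constrain each other, so these values cannot decide whether replicate numbers pair the samples. With the numbers as a replicate block 0 of the 88 and 83 of all genes were called, and the median of the 88 was 0.10.

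Some named genes whose 95% intervals span 0 changed sign. With library size only, the log2 fold change was 0.043 for Cox6a1, 0.048 for Cox6b1 and 0.022 for Cox8a. With single libraries left out it ran from -0.25 to 0.15 for Cox6b1 and -0.21 to 0.066 for Cox8a, both above 0 without Vav1-Cre replicate 2. It ran from -0.049 to 0.065 for Uqcrc1, -0.018 to 0.36 for Cycs, -0.0015 to 0.21 for Cox7a1, -0.045 to 0.22 for Ndufa4, -0.027 to 0.10 for Atp5g1 and -0.072 to 0.11 for Atp5g3, each lowest without Vav1-Cre replicate 3. The cause was not tested. Of the other values of named genes, 421 kept their direction and side of the threshold and 8 passed it. Genes under about 5 CPM, such as Atp5s and Cox7a1, rest on few reads.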
